A study of Homo sapiens with 6 samples.

Results

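Granins are acidic proteins that aggregate in the trans-Golgi network and are packed with hormones and neuropeptides into dense-core secretory granules. Inside the granule, prohormone convertases cut the precursors at pairs of basic residues, and carboxypeptidase E trims the basic residues that the cut leaves behind. Chromaffin cells, sympathetic neurons and tumours derived from them, neuroblastoma included, are known for this machinery, and chromogranin A is used as a marker of neuroendocrine cells. The set described here holds 10 genes of this system, chosen by name: the granin genes CHGA, CHGB, SCG2, SCG3 and VGF, the convertase genes PCSK1 and PCSK2, the carboxypeptidase gene CPE, and SCG5 and PCSK1N, which encode small partners of the convertases. Of these, 8 had a row in the gene table, which lists 20668 genes, and all 8 passed the filter on low counts. The other 2, PCSK1 and PCSK2, were followed in the transcript files.

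The 6 RNA-seq libraries came from SH-SY5Y, a human neuroblastoma line of sympathoadrenal character, grown without treatment. There were 3 libraries of the unedited line (genotype WT) and 3 of SH-SY5Y edited by CRISPR/Cas9 to disrupt DNAJC12, a co-chaperone gene (genotype DNAJC12-KO). How many edited clones were used, where the guide cut, and whether replicates were grown apart are not given in the sources used here, so p-values cover no more than library-to-library spread, possibly technical in part. The series was made to study DNAJC12 in cell invasion.

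Each library held 19321842 to 21869659 counts. DNAJC12 RNA stood at 33.8, 31.3 and 28.2 TPM (a level scaled for transcript length and library total) in the 3 WT libraries and at 8.06, 8.30 and 6.60 TPM in the 3 knockout libraries, so that the labels and the targeted gene went the same way and part of the RNA remained (log2 fold change -1.95 ± 0.13, SE). Of 16403 genes tested, 26.0% passed by edgeR (adjusted p under 0.05): the knockout had 2383 genes up and 1887 down. Scaled by library size alone, the split was 2055 higher and 2438 lower. All 18 markers of sympathoadrenal neuroblasts were tested. Their WT means ran from 3.37 CPM (counts scaled for library size) for MYCN to 1057 CPM for HAND2. PHOX2A stood at 496 CPM and GATA3 at 244 CPM. Among the markers of other cells, SOX10, FOXD3 and CDH19 of the Schwann lineage and KRT5, KRT14, CD3E, HBB, PECAM1, CDH5 and KDR of epithelial, blood and endothelial cells had no row in the gene table. The other 4 of those last markers summed to 1.31 to 3.15 CPM in WT and 2.22 to 2.60 CPM in the knockout.

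Granin and processing genes moved in both directions in the knockout. SCG2, CHGB, VGF and CPE fell, and these were the 4 most abundant of the set in WT. CHGA, SCG3 and SCG5 rose, PCSK1N showed no detectable change, and neither convertase gene had a read in the transcripts of it that were examined. For each of the 7 genes that changed, the values of the genotypes did not overlap, as was the case for 41.7% of all genes tested. By the edgeR quasi-likelihood test 3 of 8 were higher and 4 of 8 lower, against 14.5% and 11.5% of all genes tested. The median log2 fold change was -0.77 against 9.19e-06 over all genes. It falls in the gap between VGF (-1.55) and PCSK1N (0.012), and no member changed by that amount. This set and the lists of related genes below were chosen with earlier results of these data known. Their shares beside those of all genes therefore describe them and cannot show that they are unusual. In bulk RNA a smaller share of cells with a transcript and less of it per cell cannot be told apart.

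**Figure D1:**
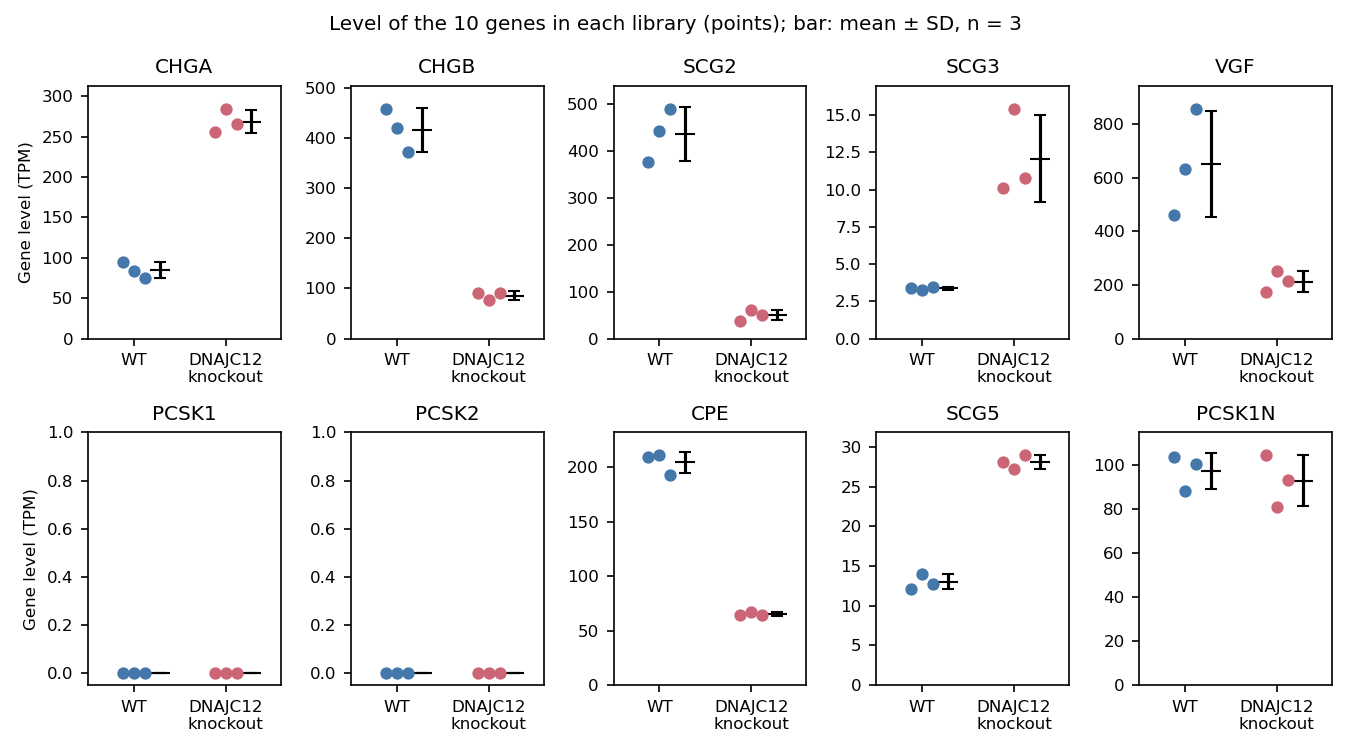
Gene level in TPM (vertical axes, each with its own scale) of the 10 genes in the 3 WT (blue) and 3 DNAJC12 knockout (red) libraries, with the mean and SD beside the points. The knockout points all lie above the WT points for CHGA, SCG3 and SCG5 and all below them for CHGB, SCG2, VGF and CPE, PCSK1N overlaps, and PCSK1 and PCSK2 lie at 0.

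Among the granins, SCG2 changed most. Secretogranin II is the precursor of the peptide secretoneurin, and its gene (ENSG00000171951) lies on the minus strand at chr2:223596940-223602361 in GRCh38.p14. SCG2 stood at 375, 442 and 489 TPM in WT and at 38.3, 60.1 and 50.3 TPM in the knockout. The highest knockout library was thus far below the lowest WT library. Its log2 fold change was -3.08 ± 0.16 (SE, n = 3 per group; edgeR adjusted p = 2.24e-07), which leaves 0.118 of the WT level (95% interval 0.0931 to 0.150). Ranked by mean TPM among 19815 protein-coding genes, SCG2 went from place 243 in WT to place 2564 in the knockout.

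CHGB encodes chromogranin B, a granule matrix protein, at chr20:5911510-5925353 on the plus strand (ENSG00000089199). Its level was 458, 419 and 371 TPM in WT and 90.2, 76.1 and 90.8 TPM in the knockout. The groups did not overlap, and the spread in relation to the mean was similar in both. CHGB fell by 2.23 on the log2 scale (SE 0.09; edgeR adjusted p = 5.25e-08), to 0.214 of WT (95% interval 0.186 to 0.246).

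VGF, a granin and the source of several neuropeptides, lies at chr7:101162509-101169952 on the minus strand (ENSG00000128564). It had the highest mean level of the set in WT and the widest spread. The WT libraries held 461, 632 and 856 TPM, and the knockout libraries 174, 250.2 and 213 TPM. Even so, the lowest WT library was above the highest knockout library. The log2 fold change was -1.55 ± 0.19 (edgeR adjusted p = 0.000171), with a range from -1.75 without WT replicate 1 to -1.29 without WT replicate 3.

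CHGA moved the other way. Chromogranin A drives granule formation in chromaffin cells and is cut into peptides such as catestatin, and its gene (ENSG00000100604) lies at chr14:92922664-92935285 on the plus strand. CHGA measured 94.4, 84.2 and 75.4 TPM in WT and 256, 284 and 266 TPM in the knockout. Each knockout library was far above each WT library, and the spread within a genotype was small. The log2 fold change was 1.71 ± 0.08 (edgeR adjusted p = 1.51e-07), a rise of 3.27-fold (95% interval 2.88 to 3.70), and CHGA went from place 1554 to place 388 among protein-coding genes.

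SCG3 encodes secretogranin III, which binds chromogranin A and carboxypeptidase E at the granule membrane, at chr15:51681503-51721026 on the plus strand (ENSG00000104112). It was a low member, at 3.40, 3.27 and 3.44 TPM in WT and 10.1, 15.4 and 10.8 TPM in the knockout. These levels rest on 126, 121 and 140 counts in WT and 435, 649 and 516 counts in the knockout. The groups were separate, with knockout replicate 2 the highest. SCG3 rose 3.99-fold (95% interval 3.16 to 5.04; edgeR adjusted p = 4.39e-06).

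**Figure D2:**
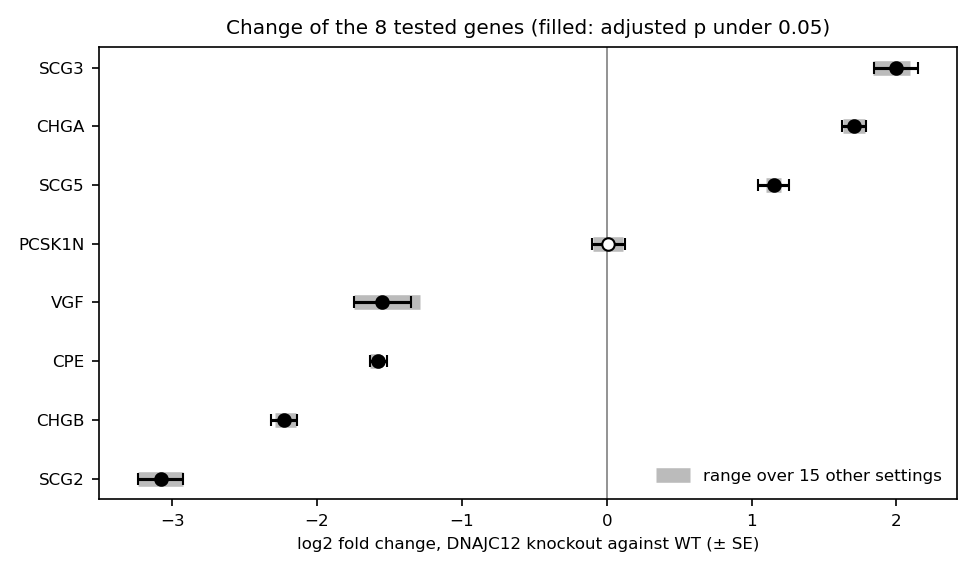
Log2 fold change of the 8 tested genes, DNAJC12 knockout against WT, from edgeR (points, with SE as error bars; filled where the adjusted p is under 0.05). Grey bars span the same quantity over 15 other settings, all of which keep SCG2, CHGB, CPE and VGF below 0 and SCG5, CHGA and SCG3 above 0, while PCSK1N runs from -0.09 to 0.12.

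The convertases themselves were not detected. PCSK1 and PCSK2 encode the serine proteases that make the first cut in most neuroendocrine precursors. The transcript files list 4 transcripts of PCSK1 (ENSG00000175426, chr5:96390333-96433248) and 5 of PCSK2 (ENSG00000125851, chr20:17226107-17484578) that are known to GENCODE release 29. Each had 0 estimated reads in each of the 6 libraries. Transcripts outside that release, which held the reads not assigned to a gene, were not examined, and the lowest row total in the gene table was 10 counts. The limit that a count of 0 allows, 3 counts, is 0.137 to 0.155 CPM in a library, and 0.0246 CPM over all 6 libraries together. It covers counting error only. Of the 19815 protein-coding genes compared, 3414 (17.2%) likewise had no read in any library.

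The partners of the convertases were detected. SCG5 encodes 7B2, the chaperone that PCSK2 needs to mature, at chr15:32641710-32697092 (ENSG00000166922). It stood at 12.15, 14.02 and 12.79 TPM in WT and at 28.2, 27.2 and 28.9 TPM in the knockout. With groups this far apart and little spread in either, SCG5 rose 2.22-fold (95% interval 1.89 to 2.62; edgeR adjusted p = 1.90e-05). PCSK1N encodes proSAAS, an inhibitor of PCSK1, at chrX:48831096-48835610 (ENSG00000102109). Its level was 104, 88.3 and 101 TPM in WT and 105, 81.2 and 93.4 TPM in the knockout, so that the genotypes overlapped fully. The log2 difference was 0.012 ± 0.12 (edgeR adjusted p = 0.961), and its 95% interval in fold, 0.844 to 1.20, does not include a change as large as that of any other tested member.

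CPE, the carboxypeptidase that follows the convertases and also takes part in sorting granule cargo, lies at chr4:165379008-165498547 on the plus strand (ENSG00000109472). It measured 209, 211 and 193 TPM in WT and 64.3, 67.1 and 64.5 TPM in the knockout. No other member varied as little within the knockout in relation to its level, and the groups were wide apart. CPE fell by 1.58 on the log2 scale (SE 0.06; edgeR adjusted p = 3.41e-08), to 0.335 of WT (95% interval 0.306 to 0.367).

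Opposite changes left a smaller and differently composed pool. Summed over the set, the level per length was 1717, 1894 and 2101 TPM in WT and 766, 862 and 817 TPM in the knockout. In WT the sum was led by VGF (33.6% ± 6.94, SD, n = 3), SCG2 (22.8% ± 0.849) and CHGB (22.2% ± 4.49), with CHGA at 4.51% ± 0.957. In the knockout CHGA led with 33.0% ± 0.484, followed by VGF with 25.9% ± 3.16, while CHGB held 10.6% ± 1.54 and SCG2 6.04% ± 0.991. The ratio of CHGA to CHGB was 0.206, 0.201 and 0.203 in the WT libraries, a narrow range given that both genes differed between those libraries. It was 2.84, 3.74 and 2.93 in the knockout libraries. PCSK1N took 5.17% ± 0.766 of the sum in WT and 11.5% ± 2.11 in the knockout, with overlapping levels in TPM. These shares describe the libraries and were not tested.

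**Figure D3:**
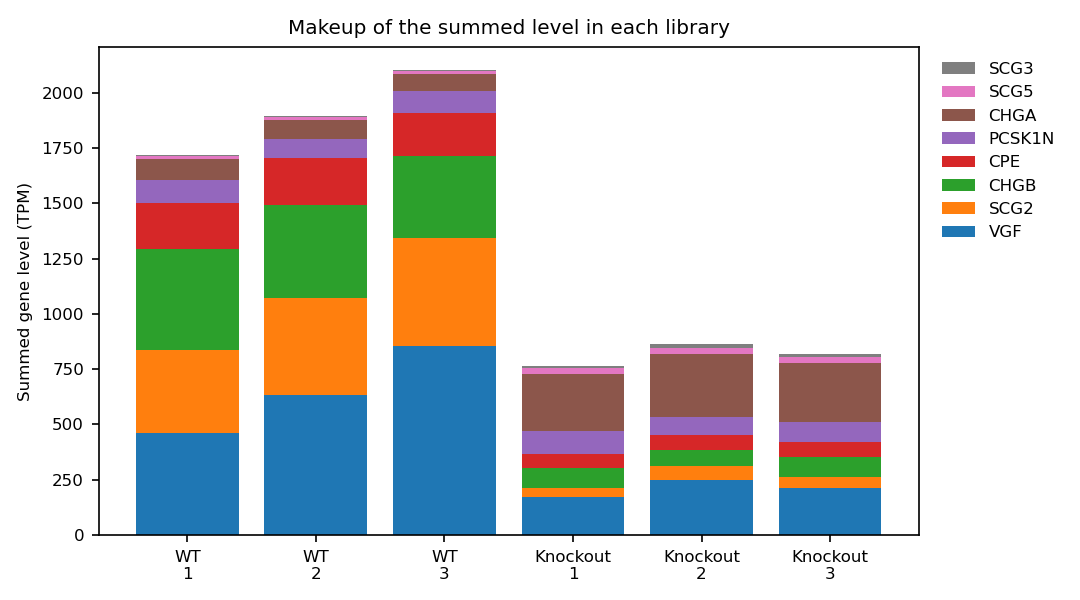
Summed level in TPM (vertical axis, from 0) of the 8 detected genes in each of the 6 libraries, divided by gene. The WT bars, 1717 to 2101 TPM, are mostly VGF, SCG2 and CHGB, and the knockout bars, 766 to 862 TPM, have CHGA as their tallest part.

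At the transcript level most members were carried by 1 transcript in both genotypes. ENST00000402744 held 99.9% of the CPE level in WT, ENST00000305409 held 99.5% of SCG2, ENST00000249330 98.6% of VGF and ENST00000378961 98.0% of CHGB. For CHGA, ENST00000216492 held 92.85% ± 1.71 (SD, n = 3) in WT and 89.96% ± 0.350 in the knockout, and the rest was spread over 5 other transcripts. Only SCG3 and SCG5 split their level between transcripts over the 5% used to name them. ENST00000220478 of SCG3 held 66.8% ± 13.8 in WT and 86.8% ± 10.7 in the knockout, and ENST00000542355 held 33.2% ± 13.8 and 12.2% ± 9.04. For SCG5, ENST00000300175 held 42.0% ± 14.2 and 52.3% ± 5.58, and ENST00000413748 held 53.3% ± 13.8 and 40.2% ± 4.27. With SDs of this size between libraries, no shift between transcripts was shown for either gene.

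Some of the promoters share an element, the full cyclic AMP response element (CRE), which is the binding sequence of CREB and related factors. CHGA, VGF and PCSK1 are shown because, among the genes of the set with a promoter sequence at hand, only these held the full element. CHGA rose in the knockout, VGF fell, and no read was found for PCSK1. The sequences are the 90 bases before a RefSeq start site in GRCh38.p14, read 5′ to 3′ on the strand of the gene, at chr14:92923060-92923149 (plus strand), chr7:101165570-101165659 (minus strand) and chr5:96433249-96433338 (minus strand). Capitals mark TGACGTCA.
CHGA: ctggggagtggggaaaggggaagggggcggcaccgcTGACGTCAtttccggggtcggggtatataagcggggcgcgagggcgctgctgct
VGF: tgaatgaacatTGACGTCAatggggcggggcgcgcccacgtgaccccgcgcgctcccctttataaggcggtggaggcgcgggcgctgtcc
PCSK1: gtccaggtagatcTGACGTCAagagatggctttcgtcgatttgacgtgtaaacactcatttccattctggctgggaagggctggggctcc

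TGACGTCA, which reads the same on both strands, began at position -54 from the RefSeq start site used for CHGA, -79 for VGF and -77 for PCSK1. For CHGA and VGF that site lies inside the gene interval given above and is not its outer end. Over all 35116 RefSeq windows of the same kind (250 bases before to 50 after a start), 1.85% held it. Windows were at hand for 8 of the 10 genes, 10 windows in all, and 3 held TGACGTCA. The shorter core TGACG, searched on both strands and contained in the full element, was in 8 of these 10 windows and in 24.6% of all windows. Of the 8 genes, only PCSK1N was without it, while PCSK1 and PCSK2, for which no read was found, had it. CHGB and SCG2 had no window. A relation between the element and the changes was not tested. A match describes the letters and is not a bound site.

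Regulators of neuroendocrine genes were examined as a list. Of 20 neuroendocrine transcription regulators tested, 6 rose, 3 fell and 11 did not pass, 45.0% called against 26.0% of all genes (median log2 fold change 0.16). REST, which represses granin and other neuronal genes outside the nervous system, rose from 21.5 ± 3.30 to 40.6 ± 6.03 CPM (SD, n = 3; 0.92 ± 0.14 on the log2 scale, edgeR adjusted p = 0.000620). SRRM4, a splicing factor that limits REST activity in neurons, rose as well, from 0.451 ± 0.137 to 13.4 ± 2.62 CPM (4.88 ± 0.26, edgeR adjusted p = 3.40e-07). SCRT1, a neuronal repressor gene, rose by 3.69 ± 0.48 from 1, 10 and 10 counts in the WT libraries. INSM2, a relative of the neuroendocrine factor INSM1, fell from 369 ± 37.9 to 93.7 ± 10.6 CPM (-1.98 ± 0.10). CREB1 (0.18 ± 0.11; edgeR adjusted p = 0.256), CREM (-0.18 ± 0.14; edgeR adjusted p = 0.412) and ATF1 (-0.26 ± 0.16; edgeR adjusted p = 0.268), whose products can bind a CRE, did not pass. CREB3L1, another member of the CREB family, rose from 0.630 to 2.43 CPM (1.93 ± 0.35; edgeR adjusted p = 0.00212). These 4 were picked after their values were seen.

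Most other enzymes of prohormone processing did not pass the test. Of 13 tested, 1 rose, 3 fell and 9 did not pass, a share of 30.8% called against 26.0% of all genes. PCSK6, a convertase of the constitutive pathway, rose from 2.19 ± 0.191 to 4.28 ± 0.321 CPM (SD, n = 3; 0.96 ± 0.22 on the log2 scale, edgeR adjusted p = 0.00771). On counts summed from the transcript files it did not pass (edgeR adjusted p = 0.303). PAM, which amidates peptides, fell from 305 ± 4.30 to 261 ± 2.87 CPM (-0.23 ± 0.05, edgeR adjusted p = 0.0116). QPCTL, a glutaminyl cyclase, fell by 0.50 ± 0.13 (edgeR adjusted p = 0.0134), and PCSK7, another convertase gene, by 0.22 ± 0.07 (edgeR adjusted p = 0.0354). All 3 stayed below 0 in 15 of 15 settings, from -0.30 to -0.22 for PAM, -0.58 to -0.38 for QPCTL and -0.45 to -0.16 for PCSK7, but none passed in all of them. PAM did not pass without WT replicate 2 (0.0562) or knockout replicate 3 (0.0775) or with length-corrected counts (0.0773), QPCTL without WT replicate 3 (0.0537) or knockout replicate 3 (0.0657) or with length-corrected counts (0.261), and PCSK7 in 6 of 15 settings (adjusted p up to 0.423). FURIN, the convertase of the Golgi, stood at 49.6 CPM in WT and 56.9 CPM in the knockout (0.20 ± 0.10, edgeR adjusted p = 0.175), a gene picked after its values were seen.

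Among genes that build granules and release their content, more rose than fell. Of 50 tested, 20 rose, 8 fell and 22 did not pass, 56.0% called against 26.0% of all genes, with a median log2 fold change of 0.08. SYT4, a synaptotagmin of granule membranes, rose from 35.7 ± 5.80 to 671 ± 88.9 CPM (SD, n = 3; 4.23 ± 0.13, edgeR adjusted p = 1.25e-08). The rabphilin gene RPH3A, whose product binds RAB3 and RAB27 on vesicles, rose from 1.67 ± 0.211 to 38.2 ± 3.59 CPM (4.51 ± 0.14). The priming factor gene UNC13A rose from 2.46 ± 0.502 to 30.0 ± 4.14 CPM (3.61 ± 0.17), and SYTL2, an effector of RAB27, from 1.74 ± 0.400 to 18.5 ± 0.600 CPM (3.40 ± 0.17). The following were picked after their values were seen. The genes of the granule membrane proteins IA-2 and IA-2 beta, PTPRN (2.44 ± 0.16) and PTPRN2 (1.74 ± 0.13), rose, and so did the granule priming gene CADPS (2.52 ± 0.19). CYB561, which feeds electrons into granules for dopamine hydroxylation and peptide amidation, fell from 481 to 203 CPM (-1.25 ± 0.07), and RAB27A fell by 0.73 ± 0.16. The count of falls was 5 in place of 8 when transcript-file counts were corrected for length, and also without WT replicate 1, WT replicate 2 or knockout replicate 3.

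Peptide precursors, the cargo that this machinery handles, were also mixed. Of 35 listed, 17 were tested, of which 6 rose and 4 fell, 58.8% called against 26.0% of all genes (median log2 fold change -0.15). Those that fell were NTS (-1.58 on the log2 scale, from 1.55 CPM in WT), AGT (-0.99), NMU (-0.85) and NMB (-0.36). They are named after their values were seen. The vasoactive intestinal peptide gene VIP rose from 5.01 ± 1.06 to 36.9 ± 10.9 CPM (SD, n = 3; 2.88 ± 0.23), the adrenomedullin gene ADM from 5.12 ± 0.947 to 24.9 ± 0.286 CPM (2.28 ± 0.14), and PTHLH by 3.34 ± 0.34 (3.93 without WT replicate 3), each with an edgeR adjusted p of at most 3.47e-05.

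**Figure D4:**
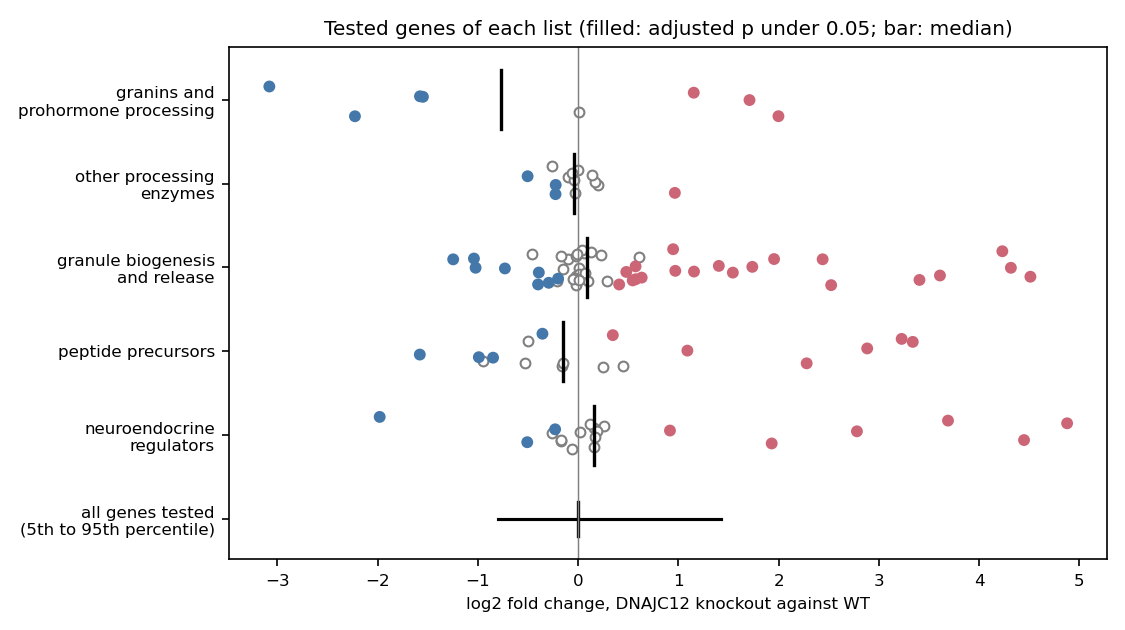
Log2 fold change, DNAJC12 knockout against WT, of each tested gene in the set and in 4 related lists (red, rose; blue, fell; open, adjusted p of at least 0.05; vertical bar, median), with the central range of all genes tested in the last row. The set has 4 genes below and 3 above 0 with 1 near 0, and the granule list extends mostly to the right.

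Location was examined only through the genes within 1 Mb of each member. SCG3 and SCG5 share chromosome 15, and CHGB and PCSK2 share chromosome 20. Both pairs lie further apart than these windows reach, so the counts cannot decide on a shared location. Within 1 Mb of the 10 genes, 168 other genes were tested, of which 23 rose and 18 fell, 24.4% called against 26.0% of all genes. Around SCG3, 1 of 15 neighbours rose and 1 fell, around SCG5 3 of 14 rose and 0 fell, and around PCSK2 2 of 13 rose and 0 fell. Around SCG2, 3 of 8 fell and 0 rose. Around CHGA, 3 of 15 rose and 1 fell. Around CHGB, which itself fell, 2 of 12 rose and 2 fell. For VGF, 7 of 45 neighbours rose and 6 fell, and for PCSK1N 3 of 30 rose and 3 fell. PCSK1 had 2 of 13 up and 1 down, and CPE 0 of 3 up and 1 down.

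Markers of the mesenchymal, substrate-adherent cell state that SH-SY5Y cultures can hold moved in both directions. Of 12 tested (13 listed), 6 rose and 2 fell, 66.7% called against 26.0% of all genes. VIM, FN1, YAP1, SNAI2, NOTCH2 and COL1A1 rose. LUM fell from 97.4 to 43.2 CPM (-1.17 on the log2 scale) and CD44 fell by less (-0.29). PDGFRB, WWTR1, TWIST1 and COL1A2 did not pass. Their summed level ran from 3167 to 3353 CPM in the WT libraries and from 4518 to 4690 CPM in the knockout libraries, most of it VIM, which encodes vimentin (2086 CPM in WT and 3261 CPM in the knockout on average). The summed level of the 18 neuroblast markers was 4891 to 5049 CPM in WT and 4663 to 4794 CPM in the knockout. Of these markers, 5 were higher and 7 lower, likewise 66.7% called. The sum covers opposite changes. SLC18A1 (-2.29 on the log2 scale) and DDC (-1.88) fell, while ELAVL4 (2.10) and ALK (3.31) rose, all picked after their values were seen. The 5 Schwann markers with a row in the table summed to 119 to 125 CPM in WT and 63.2 to 74.0 CPM in the knockout, nearly all of it PMP22. Their part in the changes of the granin genes was not tested.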

How the data were processed

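Libraries were stranded and made from rRNA-depleted total RNA, per the labels' protocols. The submitters' processing notes name cutadapt 3.5, Salmon 1.10.0, DESeq2 1.42.1 and GRCh38.p14, without roles; annotation release and strand setting are not given in the sources used here. The authors deposited a gene table of counts (estimated reads rounded to whole numbers) and, per the file headers, transcript files with estimated counts and TPM for 251955 transcripts. Of 21071 gene rows, 403 repeats with identical counts were removed. GENCODE release 29 gave each transcript its gene (94.2% to 94.6% of reads); a gene's TPM is the sum over its transcripts.

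The test of genotype used edgeR 4.0.16 in R 4.3.3: filterByExpr, TMM, quasi-likelihood F-test, two-sided, Benjamini-Hochberg adjustment over 16403 genes, threshold 0.05. CPM are TMM-scaled, each SE is the size of the log2 change divided by the root of its F value, and 95% intervals use the t distribution of that fit. The procedure was tested on counts simulated from the same kind of model, with the spread fitted to these libraries. Such a test checks the code and cannot speak to clones or to how replicates were grown. Replicates differed by more than counting noise (chi-square per gene 4.22 to 21.0). Members and lists were chosen with earlier results of these data known. Named genes are all members, DNAJC12, REST, and from each of 4 related lists the 4 with the smallest adjusted p, of which some are not reported here; others are marked. The fixed rule also called for protein sequences of CHGA and SCG2, which are not printed here. Promoter sequences are RefSeq's; CHGB and SCG2 had no entry. Alternatives were DESeq2 1.42.0, limma-voom (limma 3.58.1), other scalings and filters, a replicate block, counts from the transcript files and each library left out. Reads shared between near-identical transcripts or genes are divided by estimation, which makes splits such as that of SCG5 uncertain.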

Additional observations from a re-analysis of the deposited data

How the results depend on the processing

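Each of the 8 tested members was refitted under 15 alternatives. All 15 kept the direction and the call of SCG2 (-3.23 to -2.93), CHGB (-2.29 to -2.15), CPE (-1.63 to -1.57), VGF (-1.75 to -1.29), SCG5 (1.098 to 1.202), CHGA (1.63 to 1.78) and SCG3 (1.84 to 2.10), with a highest adjusted p of 0.00141 (VGF). PCSK1N passed in 0 of 15, from -0.09 (without knockout replicate 1) to 0.12 (without knockout replicate 2), so its direction was not fixed. The members' count was 3 higher and 4 lower under every alternative. Among all genes the count lower was 1220 when transcript-file counts were corrected for length and 1208 to 2150 with 1 library left out, the lowest without knockout replicate 3. Of the other processing enzymes, 0 were lower with length-corrected counts and 0 to 3 with 1 library left out (0 without knockout replicate 3, 1 without WT replicate 2 or 3); 0 were higher on summed transcript counts and 1 to 3 with 1 library left out. Of the granule genes, 5 were lower with length-corrected counts and 5 to 8 with 1 library left out. The cause of these shifts was not tested.

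Replicate numbers are shared by the genotypes, but same-numbered libraries did not deviate together (correlations of 0.0591, -0.0297 and -0.0652). With the replicate number as a replicate block, 3 members were higher and 4 lower, and 2541 and 2024 of all genes. Depth limits the reading of PCSK1 and PCSK2, whose examined transcripts could be present below 0.137 to 0.155 CPM in a library. Transcripts of both genes outside GENCODE release 29 were not examined. Depth also limits the reading of transcript shares in SCG3 and SCG5.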
